A study of Mus musculus with 4 samples.

Results

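LXLOC_006185 is a single listed transcript of 15977 bases in tables of long non-coding RNA (lncRNA) from the mouse ovary. It was taken by its identifier, as 1 of 50821 features listed in at least 1 library, of which 3362 carry the prefix LXLOC. It was selected on its estimated counts in the 4 libraries, which are high in both day 3 libraries and low in both cultured ones, so its own levels are given as a description with no test. No source used here explains the prefix, the tables pair no identifier with a gene symbol, and its position and sequence in the genome were not analysed here.

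The study set ovaries of 3-day-old mice (2 libraries, labelled as before follicle initiation) against ovaries isolated at the same age and then kept in culture for 8 days (2 libraries, labelled as after initiation). No genotype, strain or added agent is named for either group, and age since birth and culture differ together between them. Each library is total RNA of whole ovary read from strand-specific TruSeq libraries, so less RNA per cell and fewer cells of a type cannot be told apart. Nothing in the labels tells whether different animals gave the libraries of a group. The p-values below therefore measure only the spread among these libraries, and that spread may be technical. The labelled tissue was not checked against cell type markers, since none of 20 marker symbols occurs among the identifiers.

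An lncRNA is a transcript that is not known to be translated into a protein. Some act in the nucleus on nearby genes or on chromatin, others in the cytoplasm, and for many no function is known. In the first days after birth the mouse ovary comes to hold primordial follicles, each a resting oocyte within a layer of flat granulosa cells. Initiation is the step at which some of these follicles begin to grow and their granulosa cells become cuboidal and divide.

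The estimated counts over all listed features summed to between 18215834 and 26566784 per library, and LXLOC features held between 396737 and 607398 of them. Cultured library 1 stood apart, with 11211 features at FPKM 0.5 or above against 6991 to 7334 in the others. FPKM is the fragment count per kilobase of feature and scaled to the library total.

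LXLOC_006185 was well above the median LXLOC level in both day 3 libraries and below it in both cultured libraries. Its estimated counts were 5219.63 and 5004.84 in day 3 libraries 1 and 2, and 110.41 and 134.11 in cultured libraries 1 and 2. Per length, that is an FPKM of 6.66 and 6.39 at day 3, and of 0.16 and 0.20 after culture. Both day 3 libraries were high, both cultured libraries were low, and the groups did not overlap. Over the tested features, 18.8% had both cultured libraries below both day 3 libraries. The mean FPKM of the day 3 libraries was 6.53 ± 0.191 (SD, n = 2), and that of the cultured libraries, 0.18 ± 0.0283 (SD, n = 2), was 36.2-fold lower. Between single libraries of the 2 groups the FPKM ratio ran from 31.9 to 41.6.

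**Figure D1:**
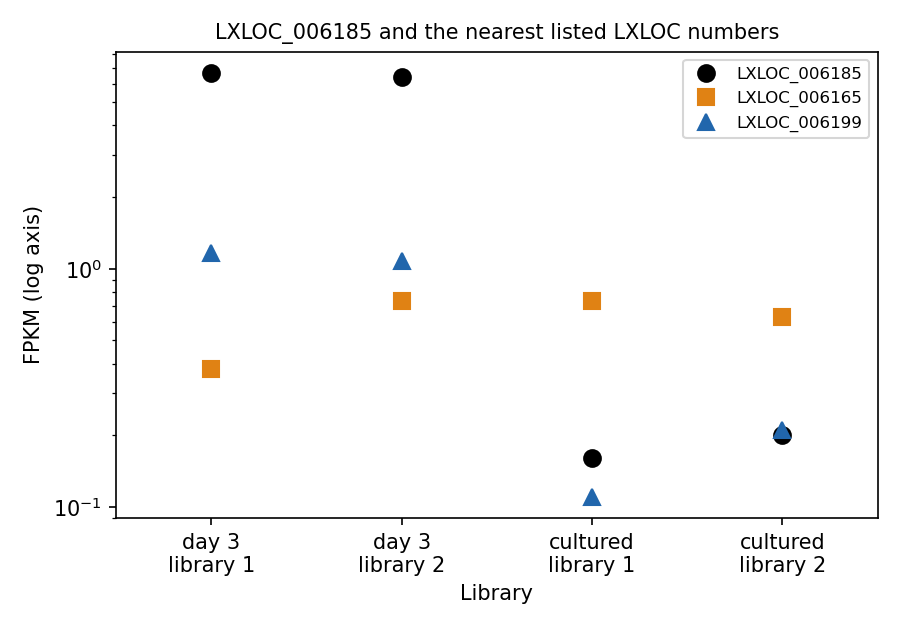
FPKM (log axis) in each of the 4 libraries for LXLOC_006185 and for the nearest listed LXLOC number on either side, 1 point per library. LXLOC_006185 goes from 6.66 and 6.39 at day 3 to 0.16 and 0.20 after culture, LXLOC_006199 is also lower in both cultured libraries, and the values of LXLOC_006165 overlap between the groups.

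The libraries of a group lay close together. The higher day 3 FPKM was 1.04 times the lower, and the higher cultured value 1.25 times the lower. The cultured counts have exact Poisson 95% intervals of 90.4 to 133 (library 1) and 112 to 159 (library 2), which overlap. The day 3 intervals, 5079 to 5364 and 4867 to 5146, overlap as well. The counts are not scaled to library size, so overlap does not show that the libraries of a group had equal levels. These intervals cover counting error only, since fragments counted without molecular identifiers may be copies of 1 molecule. The 2 day 3 libraries together held 10224 counts and the cultured ones 245. With library size taken from the FPKM scaling, the ratio was 36.34, and its exact binomial 95% interval of 32.01 to 41.42 likewise covers counting error only.

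As a share of the counts of all listed features, LXLOC_006185 took 0.0196% in day 3 library 1 (Wilson 95% interval 0.0191% to 0.0202%) and 0.0190% in day 3 library 2 (0.0185% to 0.0195%). In the cultured libraries the share was 0.000527% (0.000436% to 0.000633%) and 0.000736% (0.000621% to 0.000871%). Within the LXLOC class the transcript supplied 1.26% and 1.14% of the counts at day 3, and 0.0182% and 0.0338% after culture. These shares rest on its length as well as its level, since a long transcript yields more fragments.

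By FPKM, which is per length, it ranked 89 of 2850 and 100 of 2858 listed LXLOC features in the day 3 libraries. In the cultured libraries it ranked 1822 of 2653 and 1540 of 2587. The median FPKM of listed LXLOC features was 0.40 and 0.42 at day 3 and 0.37 and 0.31 after culture. The day 3 values of LXLOC_006185 are many times the median, and its cultured values are under it.

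The fitted log2 fold change of LXLOC_006185, cultured against day 3, was -5.46 (edgeR with trimmed-mean scaling, TMM). It was -5.05 without cultured library 1 and -6.08 without cultured library 2. In cultured library 1 the median tested feature was 0.50 and 0.45 above day 3 libraries 1 and 2 on the log2(FPKM + 0.5) scale, and in cultured library 2 it was 0.05 above and 0.01 below (-0.01). On that scale, which understates changes of low features, LXLOC_006185 was between 3.30 and 3.44 lower in each cultured library than in each day 3 library (differences of -3.30 to -3.44). The part of the offset of cultured library 1 in the fitted value was not tested beyond these values.

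In the fit over all features, 8557 reached an FPKM of 0.5 in 2 or more libraries and were tested. Of all tested features, 14.4% passed the threshold of 0.05 on the Benjamini-Hochberg adjusted p of edgeR's quasi-likelihood test, 8.50% as lower in the cultured libraries and 5.87% as higher. LXLOC_006185 entered this fit only through its day 3 libraries, so its place in the order of changes is a description. It had the 25th largest fitted fall of the 8557 features and the 16th largest of 1290 LXLOC features. Among the 288 tested features with a mean day 3 count of 1000 or more, its fitted fall was the largest. The next was that of a feature of 666 bases with the prefix NONMMUG, the other identifier class of the tables, at -5.30. That gap is smaller than the spread between libraries (SD of the log2 fold 0.23), and the 666-base feature came first in limma on log2(FPKM + 0.1) and log2(FPKM + 0.5) and without day 3 library 2. A 580-base LXLOC feature came first without day 3 library 1. That feature had 628 counts in day 3 library 1 and 4327 in day 3 library 2, whereas the day 3 counts of LXLOC_006185 differed by a factor of 1.04.

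The next comparison set LXLOC_006185 beside other LXLOC features of 4000 bases or more. There were 419 others, with a median length of 6007 bases, and 200 of them passed the filter. Of these 200, 35 fell, 15 rose and 150 did not pass the test (edgeR, adjusted over all features), with a median log2 fold change of -0.02 against 0.08 over all tested features. Falls thus made up 17.5% of the long LXLOC features, beside 8.50% of all tested features and 24.6% of the 1289 other LXLOC features tested. Of the 35 that fell, 15 passed the filter only through the day 3 libraries, and 9 of the 15 that rose only through the cultured ones. When TMM was replaced by the totals recovered from FPKM, 16 long LXLOC features fell and 16 rose. With that scaling the median of all tested features was 0.45, and 60.7% of all calls were higher after culture, against 40.8% with TMM. Without day 3 library 1 there were 18 falls and 6 rises among the long LXLOC features.

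Within this set LXLOC_006185 combined a high day 3 level with a low cultured level. By FPKM it ranked 18 of 376 and 21 of 378 listed long LXLOC features in the day 3 libraries, and 282 of 370 and 241 of 371 in the cultured libraries. Counting LXLOC_006185, 4 of 201 tested long LXLOC features had a mean cultured FPKM at least 10 times below the day 3 mean, as did 1.04% of all tested features (89 of 8557) and 50 of 1290 LXLOC features. The lengths of the 4 were 4482, 5903, 5108 and 15977 bases. The 3 others had at most 299.99 counts in any day 3 library. Its fitted fall was the third largest of the 201, behind those of the features of 4482 and 5903 bases.

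**Figure D2:**
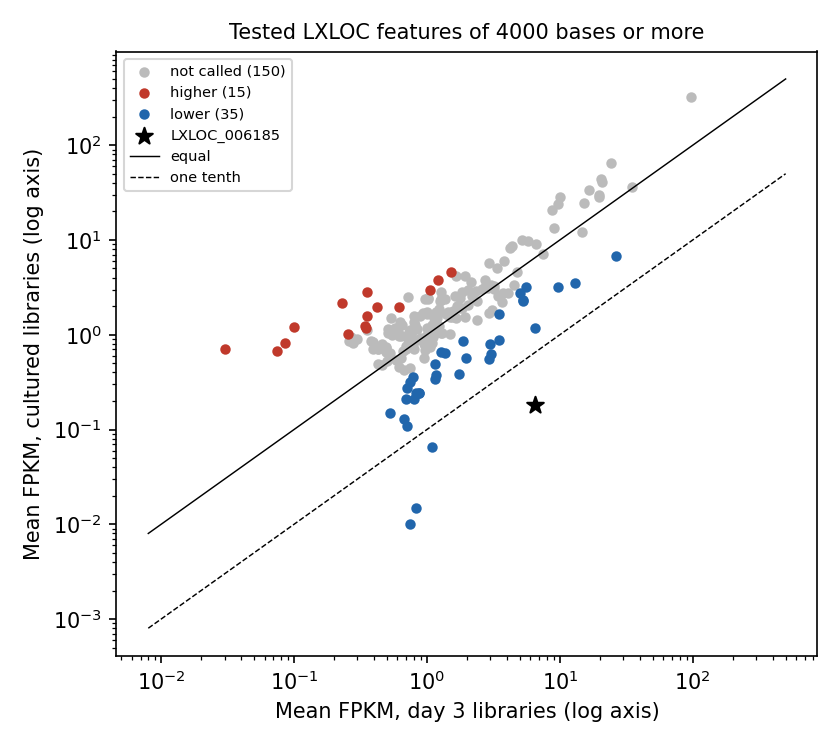
Mean FPKM of the cultured libraries against mean FPKM of the day 3 libraries (both log axes) for the 201 tested LXLOC features of 4000 bases or more, coloured by the edgeR call, with a solid line of equal level and a dashed line 10 times below it. LXLOC_006185, at 6.53 and 0.18, lies below the dashed line, to the right of the 3 other features under it.

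The long feature with the largest fitted fall, is 4482 bases long and has a number 169 higher. Its FPKM was 0.80 and 0.68 in the day 3 libraries and 0.01 in each cultured library. It held 322 day 3 counts and 2 cultured counts. With library size taken from the FPKM scaling, their ratio was 140.2. Its exact binomial 95% interval of 38.5 to 1163 covers counting error only. The fitted log2 fold change of this 4482-base feature was -7.32. The feature passed the filter only through its day 3 libraries and was named for its fall, so this value is given without its test. The interval of its ratio overlaps that of LXLOC_006185, 32.01 to 41.42. Both features were picked for their falls in these data, so the overlap does not show that the falls are alike. LXLOC_025539, of 4334 bases, had the largest rise in this set. It had FPKM values of 0.02 and 0.04 before culture and reached 0.89 and 0.53 in the cultured pair. The edgeR fit gave a rise of 4.13 on the log2 scale. This feature passed the filter only through the cultured libraries and was named for its rise, so its value is given without its test. LXLOC_044703, of 4309 bases on average over 2 transcripts, had the most counts of the set, with FPKM 89.25 and 104.26 in the day 3 libraries against 479.04 and 172.25 in the cultured ones. Both cultured libraries were above both day 3 libraries, cultured library 1 by far. Its fitted log2 difference of 1.31 (SE 0.474) missed the threshold (edgeR adjusted p = 0.0819). It passed without cultured library 2 (adjusted p = 0.0121), with DESeq2 (0.0129), with the FPKM totals (0.0293), with the filter at FPKM 1 (0.0436) and in limma on log2(FPKM + 0.5) (0.0442).

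At a day 3 level like that of LXLOC_006185, with a mean FPKM from 5 to below 8, the set held 9 other tested features. Of these, 5 fell and 4 were not called, beside 17.5% lower over the long LXLOC features tested and 8.50% over all tested features. Their fitted log2 fold changes ran from -2.88 to 0.68. They were picked by their day 3 level, which is itself part of the contrast, so the number of falls is a description. Only 1 of the 9 fell with the FPKM totals, in limma on log2(FPKM + 0.5), and without day 3 library 1, day 3 library 2 or cultured library 1. The nearest in day 3 level with a fall was a single transcript of 7204 bases, at FPKM 6.34 and 6.59 in the day 3 libraries and 1.77 and 0.61 in the cultured ones. Its cultured libraries were below its day 3 libraries but above both cultured values of LXLOC_006185. It fell by 2.88 on the log2 scale (SE 0.43, edgeR adjusted p = 0.000692).

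LXLOC features of similar length had smaller fitted changes. Of 10 other LXLOC features within 1000 bases of its length, 7 were tested, with lengths from 15488 to 16583 bases. Their FPKM lay between 0.17 and 1.95 in the day 3 libraries, all below LXLOC_006185, and between 0.5 and 3.95 in the cultured libraries, all above it. Of the 7, 1 rose and 6 were not called (2 rose without cultured library 2, and 0 without day 3 library 1 or in limma on log2(FPKM + 0.5)), and the fitted log2 fold changes ran from -0.45 to 1.81. Above a length of 8000 bases 71 other LXLOC features were tested, and 11 of them rose (15.5%) while 4 fell (5.63%), beside 5.87% and 8.50% of all tested features, with a median log2 fold change of 0.25. The largest of these falls, in a 9509-base transcript with FPKM 0.53 and 0.82 in the day 3 and 0.16 and 0.10 in the cultured libraries, had a fitted log2 value of -2.70. This transcript passed the filter only through its day 3 libraries, so its value is given without its test. The fitted value of LXLOC_006185, -5.46, lies beyond it. That difference was not tested, because LXLOC_006185 was chosen for its own change.

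**Figure D3:**
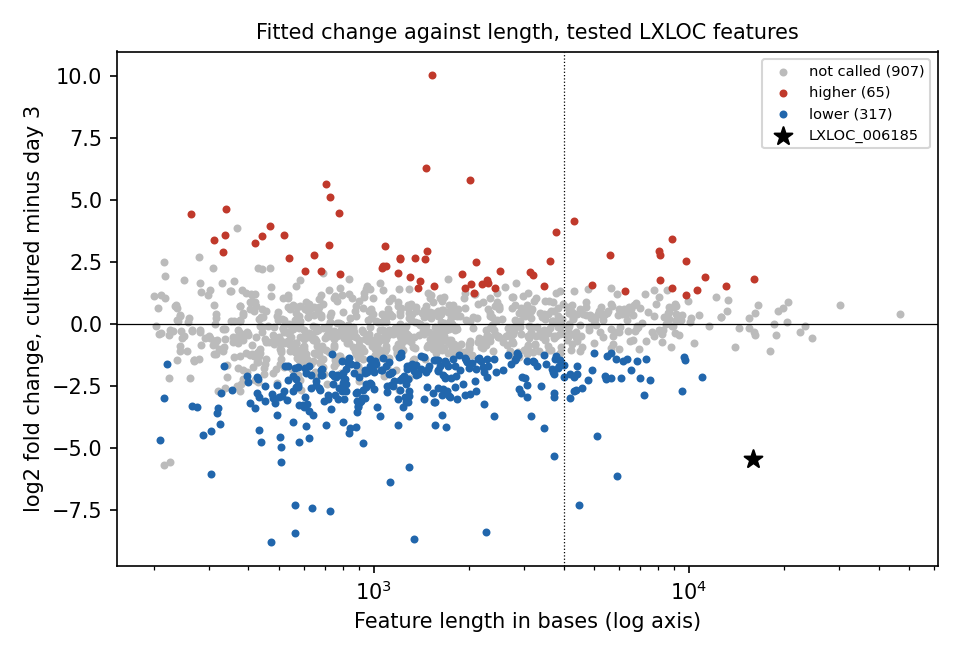
Fitted log2 fold change (cultured minus day 3) against feature length in bases (log axis) for the 1290 tested LXLOC features, coloured by the edgeR call, with a dotted line at 4000 bases. LXLOC_006185, at 15977 bases and -5.46, is below every other tested LXLOC feature of 8000 bases or more, of which the lowest is at -2.70.

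The last comparison looked at listed LXLOC features with the nearest numbers, 10 below and 10 above, which run from 5626 to 6276. Whether consecutive numbers lie next to each other in the genome was not analysed here. Of the 20, 9 passed the filter. LXLOC_006199 fell, 2 features rose and 6 did not pass the test (edgeR, adjusted over all features), with a median log2 fold change of 0.21. Shares of 1 and 2 in 9 rest on too few features to set against the 8.50% lower and 5.87% higher over all tested features. Of the 11 neighbours below the filter, 7 had both cultured counts below both day 3 counts, 2 had both above, and 2 overlapped or tied. These counts are not scaled to library size, and the cultured libraries held fewer counts in total. By FPKM, 18.8% of all tested features had both cultured libraries below both day 3 libraries. The matching share over features below the filter was not computed, so no result is drawn from the 7. In 9 of these 11 no library had more than 15 counts. The most counted was a 3396-base feature with a number 479 below, at 155 and 68 counts in the day 3 libraries and 31 and 26.66 in the cultured ones.

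LXLOC_006199, the nearest listed number above, is a single transcript of 1843 bases. Its FPKM was 1.16 and 1.08 in the day 3 libraries and 0.11 and 0.21 in the cultured ones, from 101.82 and 94.42 counts against 8.98 and 15.58. Both day 3 libraries were high and both cultured libraries low, as for LXLOC_006185, and the groups did not overlap. Its fitted fall was 3.03 on the log2 scale. It passed the filter only through its day 3 libraries, where it is high, so this value is given without its test. It held 196 day 3 counts and 25 cultured counts in all. With library size taken from the FPKM scaling, their ratio was 6.828, with a 95% counting interval of 4.49 to 10.81. In the cultured libraries the FPKM of LXLOC_006199 and of LXLOC_006185 was of similar size, 0.11 and 0.21 against 0.16 and 0.20.

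LXLOC_006165, the nearest listed number below, has 2 transcripts and a mean length of 1631 bases. Its FPKM was 0.38 and 0.73 in the day 3 libraries and 0.73 and 0.63 in the cultured ones. The groups overlapped, and the fitted log2 difference of 0.07 (SE 0.457) did not reach the threshold (edgeR adjusted p = 0.94).

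The 2 neighbours that rose were farther away in number. A feature of 1551 bases, with a number 84 above, went from FPKM 0.35 and 0.59 in the day 3 libraries to 1.74 and 1.60 in the cultured ones, a rise of 1.52 on the log2 scale (SE 0.449, edgeR adjusted p = 0.0356). Both cultured libraries were above both day 3 libraries. This call was lost without day 3 library 1 (adjusted p = 0.332), day 3 library 2 (0.0556) or cultured library 2 (0.116), and with DESeq2 (0.0513), the FPKM totals (0.0593) and limma on log2(FPKM + 0.5) (0.0603) and log2(FPKM + 0.1) (0.0569). A feature of 469 bases, with a number 357 below, had 3.83 and 0 counts in the day 3 libraries and 48.22 and 25.82 in the cultured ones. It passed the filter only through the cultured libraries, where it is high, so these counts are given without its test. A neighbour of nearly the same length as LXLOC_006185, 16583 bases in 1 transcript, had FPKM 0.97 and 1.08 in the day 3 libraries and 3.95 and 0.82 in the cultured ones. Its cultured libraries lay on either side of its day 3 libraries, and its fitted log2 difference of 0.73 (SE 0.472) was not called (edgeR adjusted p = 0.35).

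**Figure D4:**
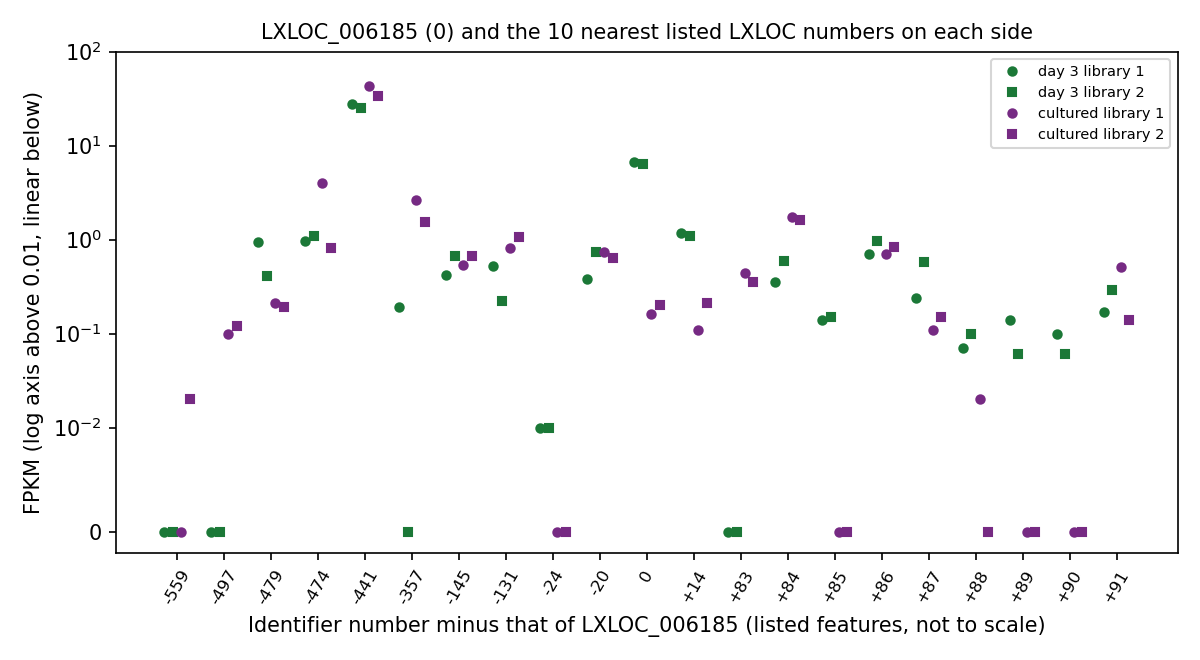
FPKM in each library (log axis above 0.01, linear below) for LXLOC_006185 and the 10 nearest listed LXLOC numbers on each side, ordered by number and labelled by the difference in number, with unlisted values at 0. LXLOC_006185 at offset 0 has both day 3 libraries well above both cultured libraries. Of the called neighbours, LXLOC_006199 at offset 14 has the same order, and the features at -357 and 84 have the opposite one. Among the other neighbours both orders and overlap occur.

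The features whose profile over the 4 libraries was most like that of LXLOC_006185 were sought by Euclidean distance between log2(FPKM + 0.5) values, each centred on the feature's own mean. This was done over 3162 tested features with a mean count of 100 or more, whose median distance was 3.78. On this scale LXLOC_006185 had centred values of 1.71 and 1.66 at day 3 and -1.73 and -1.64 after culture. The 5 nearest were NONMMUG features of 659, 1727, 2753 and 1857 bases and an LXLOC feature of 530 bases, at distances of 0.548 to 0.863. None of the 5 is a neighbour in number or longer than 2753 bases, but this was partly fixed by the search. NONMMUG features carry no LXLOC number. LXLOC_006199 and the 4482-base feature, with 220.8 and 324 counts over the 4 libraries, were below the count minimum and could not be picked. The nearest, of 659 bases, had FPKM 10.78 and 6.60 in the day 3 libraries and 0.52 and 0.28 in the cultured ones. It was high and low in the same libraries, and its day 3 libraries were farther apart than those of LXLOC_006185. The 1727-base feature had FPKM 22.56 and 13.29 in the day 3 libraries and 1.83 and 1.86 in the cultured ones. These features were picked for their likeness in the same 4 libraries, so their changes are not separate evidence.

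**Figure D5:**
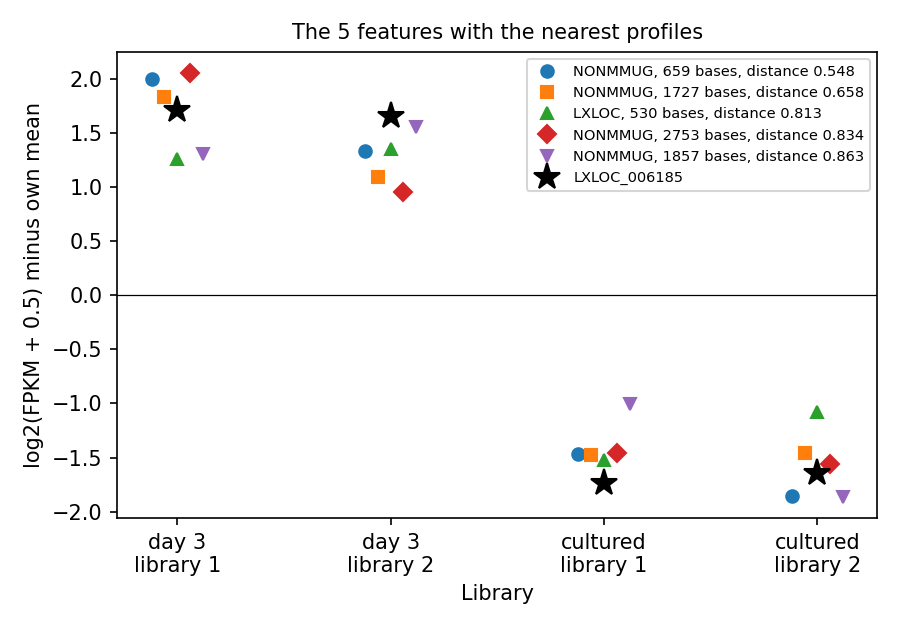
Log2(FPKM + 0.5) minus the feature's own mean, by library, for LXLOC_006185 and the 5 features with the nearest profiles, 1 point per feature and library. All 6 features are above 0 in both day 3 libraries and below 0 in both cultured libraries, and the day 3 values of LXLOC_006185, 1.71 and 1.66, lie closer together than those of the 5 others.

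No feature had the same length as LXLOC_006185 together with counts within 10% of its own in every library (0 found), so it was not among near-identical copies by that rule. Its estimated counts are not whole numbers, and the share of its reads that also fit elsewhere was not analysed here.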

How the data were processed

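RNA of 4 mouse ovary libraries was analysed, 2 of day 3 ovary and 2 of ovary cultured for 8 days, grouped by the labels. HISAT, Cufflinks and build mm9 appear in the submitters' processing notes with neither version nor role, and no source used here names the counting tool. Per the file headers, each deposited table gives a feature's length, its expected count and its FPKM. The authors' expected counts need not be whole, and 65.3% to 67.8% of them per library are whole as printed. The FPKM values are the authors' scaling of those counts to length and library total. Features not listed in a table were set to 0 there. The smallest listed FPKM is 0.01. Library totals of 41416709 to 49290170 were recovered from a straight line of count over FPKM on length, for 400 to 608 features with at least 500 counts and 1000 bases. All of them (100%) lay within 2% of the line.

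Counts were rounded and tested over all features with edgeR 4.0.16 in R 4.3.3 (TMM factors 0.794, 0.842, 1.45 and 1.03, quasi-likelihood F test, two-sided), for features that reached FPKM 0.5 in 2 libraries or more. Calls used a Benjamini-Hochberg adjusted p below 0.05. Printed SEs are the absolute log2 change over the square root of F. Intervals are 95%, from scipy 1.17.1. Alternatives used DESeq2 1.42.0, limma 3.58.1, other scalings, filters and sets, and each library left out.

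LXLOC_006185 and the lists were chosen with earlier results of these data known. The naming rule took LXLOC_006185, the nearest listed number on each side, the long feature with the most counts and those with the largest rise and fall. At most 2 identifiers that rose and 2 that fell are printed, so other features are given by length. The sets of similar length and similar day 3 level were formed afterwards for description. None (0) of the 50821 identifiers matched the mouse gene tables at hand, which are not of build mm9, and no sequence is printed.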

Additional observations from a re-analysis of the deposited data

How the results depend on the processing

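Depth limits the cultured values of LXLOC_006185, which rest on 110.41 and 134.11 counts, and 2 libraries per group limit every test. Its fitted log2 fold change was negative in all 12 alternatives run on it. It was -5.18 with the FPKM totals, -3.37 and -4.57 in limma with pseudocounts of 0.5 and 0.1, which shrink the changes of low features by construction, and -6.08 to -5.05 with each library left out. Its place among falls of long LXLOC features, 3 with TMM, was 1 in both limma fits and with the FPKM 1 filter, 11 with no filter, and 4 and 1 with length minimums of 2000 and 8000 bases, where other features are compared. The 1229 calls over all features became 684 with the FPKM totals, 2540 with no filter, 744 with the FPKM 1 filter, 741 in limma at 0.1 and 586 to 1260 with each library left out (586 without day 3 library 1 and 775 without cultured library 1). Falls among long LXLOC features, 35, became 16 with the FPKM totals, 22 with the FPKM 1 filter, 13 and 11 in limma at 0.5 and 0.1, 87 and 4 with the length minimums of 2000 and 8000 bases, and 18 to 42 with each library left out. Rises, 15, became 32 with no filter, 9 with the FPKM 1 filter, 9 in limma at 0.1, 29 at 2000 bases and 6 to 22 with each library left out. The cause was not tested, apart from the numbers of features compared. Among the neighbours, the 3 calls became 2 to 4 over 14 alternatives. The fitted log2 fold change of LXLOC_006199 was negative in all 12 run on it, from -3.97 to -1.30. These values are given without their tests, since it passed the filter only through the day 3 libraries. Library numbers are not said to mark a pairing, and deviations of libraries with the same number had r = -0.12 over the tested features. The fit with the replicate block gave 1204 calls, 34 falls and 17 rises among long LXLOC features, 3 calls among the neighbours, and -5.52 and place 3 for LXLOC_006185.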

Other observations

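LXLOC_006185 and the 4482-base feature with the largest fall among long LXLOC features have numbers only 169 apart, and the numbers between them were counted after this was seen. Of 64 LXLOC features listed between them, 14 passed the filter. Of these 14, 3 fell, LXLOC_006199 among them, 1 rose, and the rest did not pass the test (edgeR, adjusted over all features). Over all other LXLOC features tested, 24.6% fell. The 3 falls among 14 are near that background.

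Long LXLOC features with 1 transcript, the class of LXLOC_006185, gave 21 falls (17.2%) and 12 rises (9.84%) among 122 tested. Their median log2 fold change was 0.20. Long LXLOC features with 2 or more transcripts gave 14 falls (17.9%) and 3 rises (3.85%) among 78 tested, with a median of -0.18. Over all tested features 8.50% fell and 5.87% rose. Of the 35 falls in both classes together, 15 passed the filter only through the day 3 libraries. Of the 15 rises, 9 passed only through the cultured ones. The difference between these classes was not tested, and the medians are on the TMM scale.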
